A study of Mus musculus with 81 samples.

Results

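The genes described here are 9 long noncoding RNAs of the mouse: Snhg1, Snhg3, Snhg6, Snhg8, Snhg11, Snhg12, Gas5, Dancr and 1110038B12Rik. They were taken by name, 9 of the 57010 genes of the count tables, from a list chosen by earlier results on these libraries, which are taken here to include the Ts against 2N values of mice on the normal diet. All 9 are annotated as long noncoding RNA genes with at least 1 small nucleolar RNA (snoRNA) gene inside their span. The libraries came from neurons cut by laser capture microdissection (LCM) from the rostral hippocampus of male mice at about 6 months of age. CA1 pyramidal neurons (CA1 PNs) gave 27 libraries, CA3 pyramidal neurons (CA3 PNs) 26 and dentate gyrus granule cells (DGCs) 28, all from 28 mice. The mice were Ts65Dn (Ts), which carry an extra copy of part of mouse chromosome 16 and serve as a model of Down syndrome, or their disomic littermates (2N), and both genotypes share the mixed C57Bl/6J Eicher and C3H/HeSnJ background of that line.

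Dams of both genotypes received either a normal choline diet, at 1.1 g/kg, or a choline supplemented diet, at 5.0 g/kg, from the start of gestation to weaning, after which all offspring ate the control diet. On the normal diet there were 6 2N and 6 Ts mice, and on the supplemented diet 7 2N and 9 Ts mice. CA1 PNs of Ts mouse 17-192 and CA3 PNs of the Ts mice 15-198 and 16-272 have no library here. The CA3 library of mouse 15-145 carries a Ts label while the DGC and CA1 libraries of that mouse are labelled 2N, and it was analysed as 2N. Pooled neurons of a region are compared, so fewer neurons that express a gene and less of its RNA per neuron cannot be told apart.

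snoRNA host genes are unusual in that the useful product of the primary transcript often lies in its introns. When such a transcript is spliced, the snoRNAs are trimmed out of the removed introns and enter the nucleolus, where the box C/D class guides ribose methylation and the box H/ACA class guides pseudouridylation of ribosomal RNA. The spliced exons are left as a long noncoding RNA that is often degraded by nonsense-mediated decay (NMD), and many hosts start with the same terminal oligopyrimidine tract as ribosomal protein genes. Gas5 was named for its accumulation in growth-arrested cells and Dancr for its antagonism of differentiation, and Snhg11 is known as a transcript enriched in neurons.

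In GRCm39 coordinates, Snhg1 lies at chr19:8700319-8703812 on the plus strand, Snhg3 at chr4:132075325-132080997 on the minus strand and Snhg12 at chr4:132035905-132038762 on the plus strand. Snhg6 lies at chr1:9926809-10014504 (minus), Gas5 at chr1:160861793-160866118 (plus), Snhg8 at chr3:123301192-123302578 (minus) and Snhg11 at chr2:158217558-158228071 (plus). Dancr spans chr5:74253357-74284805 (plus) and 1110038B12Rik chr17:35149718-35171867 (minus). None lies on chromosome 16. Ts65Dn mice also carry 3 copies of a segment near the centromere of chromosome 17, and where 1110038B12Rik lies relative to it was not analysed here. Together they hold 32 annotated snoRNA genes, of which 10 lie in Gas5, 8 in Snhg1, 5 in Snhg12, 2 each in Snhg3, Snhg11 and 1110038B12Rik and 1 each in Snhg6, Snhg8 and Dancr. The snoRNAs lie in introns of the canonical transcript, except those of Snhg12 and Dancr, which lie inside an exon of it, so that their reads and those of the host can be shared. Exons of all annotated transcripts together cover all 3494 bases of Snhg1, all 1387 of Snhg8 and 4228 of the 4326 of Gas5. Reads of snoRNAs in these hosts can therefore be shared with the host too.

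The most counted snoRNA of 6 hosts is printed here, because these small RNAs are what the hosts are known for and their counts are set beside those of the hosts further on. Each sequence was read from GRCm39 on the strand of the gene, and capitals mark the letters TGATGA near the start and CTGA near the end (C and D boxes) or ACA near the end (H/ACA class). The box search asked for TGATGA starting within the first 16 bases and CTGA within the last 15 bases, or ACA within the last 10, and among 1507 annotated snoRNA genes 20.2% held the C and D box letters and 46.4% the ACA letters alone.
Snord22, in Snhg1, chr19:8703230-8703355, plus strand: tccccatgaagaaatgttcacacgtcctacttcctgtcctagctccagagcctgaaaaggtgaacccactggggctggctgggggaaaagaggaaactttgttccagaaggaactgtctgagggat
Snora73b, in Snhg3, chr4:132079633-132079837, minus strand: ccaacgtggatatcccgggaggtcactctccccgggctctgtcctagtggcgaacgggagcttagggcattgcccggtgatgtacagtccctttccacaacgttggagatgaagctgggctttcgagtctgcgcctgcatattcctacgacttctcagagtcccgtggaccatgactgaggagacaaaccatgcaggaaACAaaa
Snora24, in Snhg8, chr3:123301586-123301715, minus strand: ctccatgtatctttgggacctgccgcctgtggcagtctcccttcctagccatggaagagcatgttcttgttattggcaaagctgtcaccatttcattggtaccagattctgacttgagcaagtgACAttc
Gm25129, in Snhg11, chr2:158221454-158221586, plus strand: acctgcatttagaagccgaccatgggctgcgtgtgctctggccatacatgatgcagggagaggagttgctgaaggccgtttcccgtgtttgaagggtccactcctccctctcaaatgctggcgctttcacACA
Snora16a, in Snhg12, chr4:132036776-132036911, plus strand: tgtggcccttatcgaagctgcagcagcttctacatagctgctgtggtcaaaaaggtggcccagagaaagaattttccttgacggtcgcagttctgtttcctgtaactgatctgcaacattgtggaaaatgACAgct
Gm22357, in Gas5, chr1:160863627-160863709, plus strand: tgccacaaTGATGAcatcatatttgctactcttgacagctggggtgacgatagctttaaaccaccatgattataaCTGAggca
Snora73b, Snora24, Gm25129 and Snora16a hold ACA near the end, and Gm22357 holds both the C and the D box letters. Snord22 met neither rule of this search. It holds CTGA near its end, left in small letters, but not TGATGA near its start, and no ACA near its end.

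Total counts ran from 645483 to 1918846 in CA1 libraries, from 625249 to 4744036 in CA3 libraries and from 358355 to 1680698 in DGC libraries. Markers of the named population were high in their own libraries, with median list means (log2 CPM, where CPM is the count of a gene scaled to a common library size, after TMM factors) of 7.61 for CA1, 7.25 for CA3 and 7.84 for dentate granule markers. A CA1 marker, Dcn, had no count in 23 of 27 CA1 libraries. The CA1 libraries of mice 17-21, 15-336 and 16-272 stood apart, with CA1 marker means of 2.92, 5.05 and 2.74 and CA2 marker means of 7.91, 7.70 and 7.41 against a CA1-library median of 2.48. A further 7 CA1 libraries also held CA2 markers at means of 5.74 to 7.32, with CA1 marker means of 6.33 to 7.35. They were 16-357 (Ts) and 17-154 (2N) of the normal diet and 15-334, 16-90 (2N), 15-140, 15-198 and 15-199 (Ts) of the supplemented diet, and the remaining 17 CA1 libraries lay at 3.23 or less. The mean of genes triplicated in Ts mice was 4.68 to 4.96 in 2N CA1 libraries except 17-154, at 5.28, which lies among the Ts libraries at 5.08 to 5.39. The CA3 and DGC libraries of mouse 17-154 lay at 4.69 and 4.78, within the 2N range. The value of its CA1 library goes against the label, so the genotype or the mouse of that library is in doubt. It is called here the library labelled 2N of 17-154 and was kept in the comparisons within mice. Results were also computed without this library, 17-21, 15-336 and 16-272, and without all 10 CA1 libraries of high CA2 markers, and are given where a call moved.

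Levels of different genes were compared as TPM, the deposited measure of transcript abundance, which takes transcript length into account. In CA1 PNs the order of mean TPM was Snhg1 at 392 ± 151 (SD, n = 27), Snhg11 at 257 ± 93.7, Gas5 at 206 ± 83.4, Snhg12 at 94.3 ± 36.8, 1110038B12Rik at 88.0 ± 37.2, Snhg6 at 86.0 ± 30.3, Dancr at 44.9 ± 15.7, Snhg8 at 20.9 ± 10.2 and Snhg3 at 3.04 ± 3.06. Snhg12, 1110038B12Rik and Snhg6 were not separated in this order, since Snhg12 was above 1110038B12Rik in 17 of 27 libraries and 1110038B12Rik above Snhg6 in 13 of 27. In CA3 PNs Snhg11 stood first at 259 ± 84.9 TPM (SD, n = 26), above Snhg1 at 134 ± 60.3 in 24 of 26 libraries. Gas5 followed at 107 ± 42.3, and the other genes lay between 47.1 for 1110038B12Rik and 4.10 for Snhg3. In DGCs Snhg1 was again first at 678 ± 275 TPM (SD, n = 28), above Gas5 at 301 ± 94.4 in 28 of 28 libraries, while Snhg11 fell to the sixth place with 43.8 ± 38.3. Snhg8 and Dancr, at 32.1 ± 12.5 and 28.4 ± 9.56 TPM in DGCs, were not separated, with Snhg8 the higher in 15 of 28 libraries.

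**Figure D1:**
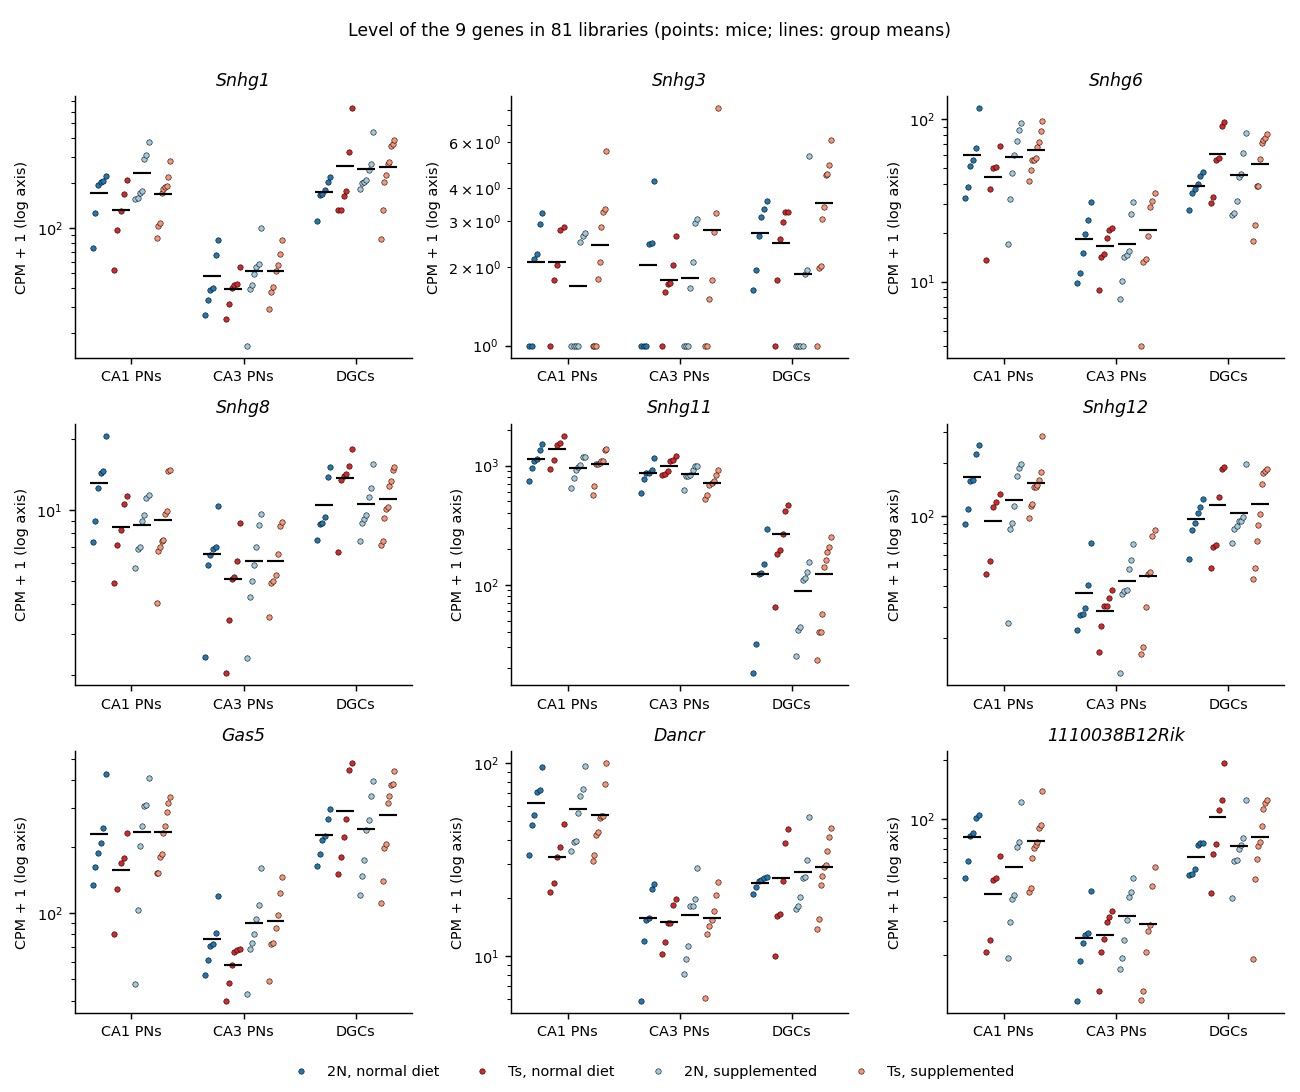
CPM plus 1 on a log axis for each of the 9 genes (panels) in CA1 PNs, CA3 PNs and DGCs, with 1 point per mouse, colours for genotype and diet and black lines for group means. Snhg1, Snhg6, Snhg12 and Gas5 sit lower in CA3 PNs than in both other populations, and Snhg11 alone among the 9 sits lowest in DGCs, between 17.2 and 468 CPM.

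The first comparison asked how the 9 genes differ between neuronal populations of the same mice, with the mouse as a block. CA1 PNs were higher than CA3 PNs for most host genes, and CA3 PNs lower than DGCs. Of the 9 genes, 7 were higher in CA1 PNs than in CA3 PNs in 2N mice on the normal diet, 5 in Ts mice on the normal diet, 5 in 2N mice on the supplemented diet and 6 in Ts mice on the supplemented diet, and none was lower (edgeR quasi-likelihood test, adjusted p under 0.05 over 20493 genes). Over all genes tested, 18.7%, 17.4%, 19.4% and 20% were called in these 4 contrasts in either direction, and 8.93%, 8.34%, 9.41% and 10.1% as higher in CA1 PNs. The median log2 fold change (LFC) of the 9 genes ran from 1.07 to 1.72 over the 4 groups, beside medians of all genes from -0.02 to 0.02. CA3 PNs against DGCs gave 5, 6, 6 and 7 of the 9 genes lower and 1 higher in each group, where 34.1%, 32.7%, 32.8% and 34.5% of all genes were called and 16.3%, 16.1%, 15.3% and 16.8% were called as lower in CA3 PNs. CA1 PNs against DGCs gave the fewest calls, 2 higher in 2N mice on either diet and in Ts mice on the supplemented diet, and 1 higher and 3 lower in Ts mice on the normal diet, where 27%, 25.6%, 31.3% and 24.4% of all genes were called.

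Snhg1, the host of the U22 snoRNA (Snord22), ran in 2N mice on the normal diet from 72.5 to 221 CPM in CA1 PNs (median 197), from 25.6 to 82.5 in CA3 PNs (median 38.4) and from 111 to 218 in DGCs (median 174). CA3 PNs were below DGCs with no overlap in that group, while CA1 and CA3 libraries overlapped through the CA1 library of 17-154, the lowest at 72.5 CPM, and the CA3 library of 15-145, the highest at 82.5. Over the 4 groups CA1 PNs were higher than CA3 PNs by an LFC of 1.65 to 2.24 (SE 0.35 to 0.43), in 25 of 25 mice. CA3 PNs were lower than DGCs by an LFC of -1.93 to -2.59, in 26 of 26 mice, and all 8 contrasts passed the test, with adjusted p from edgeR of 0.0027 or less. CA1 PNs against DGCs passed the test in none of the 4 groups, with LFC from -0.91 to -0.05. The lowest, in Ts mice on the normal diet, had an SE of 0.39 and an adjusted p of 0.0895 in edgeR, and passed with DESeq2 and limma-voom.

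Gas5, with its 10 intronic snoRNA genes, had the same order. In 2N mice on the normal diet it ran from 133 to 427 CPM in CA1 PNs (median 197), from 51.6 to 119 in CA3 PNs (median 70.3) and from 163 to 295 in DGCs (median 218), so that CA3 libraries overlapped neither of the other populations. The LFC of CA1 PNs against CA3 PNs was 1.31 to 1.53, in 25 of 25 mice, and that of CA3 PNs against DGCs -1.45 to -2.26, in 26 of 26 mice, and each was called in all 4 groups. Against DGCs, CA1 PNs were lower for Gas5 in Ts mice on the normal diet (LFC -0.87, adjusted p = 0.042 from edgeR). That call was lost without the mouse block, at an adjusted p of 0.052, and when any of the mice 16-490, 17-153, 17-157, 17-173 or 17-192 was left out.

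Snhg12 and Snhg6 followed the same pattern. Snhg12, host of H/ACA snoRNAs such as Snora16a, had group means (CPM) in CA3 PNs of 27.8 to 44.5, against 92.6 to 165 in CA1 PNs and 94.5 to 116 in DGCs. It was higher in CA1 PNs than in CA3 PNs by an LFC of 1.53 to 2.22 (24 of 25 mice) while CA3 PNs were below DGCs by -1.33 to -1.90 (26 of 26 mice). Snhg6, host of Snord87, had group means (CPM) in CA3 PNs of 15.5 to 19.8, against 43.2 to 63.8 in CA1 PNs and 37.8 to 59.96 in DGCs. Its LFC was 1.47 to 1.87 in favour of CA1 PNs over CA3 PNs (24 of 25 mice) and -1.19 to -1.94 for CA3 PNs against DGCs (25 of 26 mice), and both genes were called in all 4 groups for both contrasts.

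Dancr differed from the other hosts in the place of DGCs. In 2N mice on the normal diet it ran from 32.4 to 93.8 CPM in CA1 PNs (median 61.5), from 4.90 to 22.8 in CA3 PNs (median 14.6) and from 20.0 to 24.6 in DGCs (median 23.6), and CA1 libraries lay above all CA3 and DGC libraries. CA1 PNs were higher than CA3 PNs by an LFC of 1.07 to 1.94 in all 4 groups (25 of 25 mice) and higher than DGCs by 0.93 to 1.35 in the 3 groups other than Ts mice on the normal diet, where the LFC was 0.28. For Ts mice on the supplemented diet the call against DGCs was lost without mouse 15-140 (adjusted p = 0.07 from edgeR) or 17-03 (adjusted p = 0.071). CA3 PNs against DGCs gave -0.59 to -0.85, called only in Ts mice on the supplemented diet, and other settings moved this call in 3 groups: it was lost there in a fit of that group's own libraries (adjusted p = 0.098) and without each of 8 of its mice, and it was gained in 2N mice on the supplemented diet and Ts mice on the normal diet with DESeq2.

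1110038B12Rik, whose exons overlap those of Neu1 on the other strand, was lower in CA3 PNs than in DGCs in all 4 groups (LFC -1.20 to -1.93, 24 of 26 mice). It was higher in CA1 PNs than in CA3 PNs in 20 of 25 mice, with calls in the normal-diet 2N group and the supplemented Ts group only (LFC 0.65 to 1.72 over the 4 groups). In Ts mice on the normal diet it was lower in CA1 PNs than in DGCs (LFC -1.28), and the 5 CA1 values were 19.7, 22.8, 47.5, 48.5 and 63.3 CPM against 40.6 to 192 in DGCs. Snhg8 had population means (CPM) in CA3 PNs of 4.98, against 8.78 in CA1 PNs and 10.4 in DGCs. It was called lower in CA3 PNs than in DGCs in 3 groups (LFC over the 4 groups -0.76 to -1.65, 23 of 26 mice), higher in CA1 PNs than in CA3 PNs in 2N mice on the normal diet alone (LFC 1.04) and lower in CA1 PNs than in DGCs in Ts mice on the normal diet (LFC -0.87).

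Several of these calls were lost when 1 mouse was left out. The fits used for this hold 1 group only, so a lost call can come from the smaller fit as well as from the mouse. In fits of the libraries of 1 group with 1 mouse left out, the CA1 against CA3 call in Ts mice on the normal diet was lost for Snhg1 and Snhg12 without any of 16-490, 17-153, 17-157 and 17-173, for Gas5 without 16-490 or 17-153, for Dancr without 16-490, 17-157 or 17-173 and for Snhg6 without any of these 4 or 17-192, with adjusted p from edgeR of 0.051 to 0.191. In 2N mice on the supplemented diet the Snhg12 call for CA1 against CA3 PNs was lost without 15-334 (adjusted p = 0.059), and those of CA3 PNs against DGCs for Snhg12 and 1110038B12Rik without 14-125 (adjusted p = 0.082 and 0.095). The 1110038B12Rik calls were also lost without 15-336 for CA3 PNs against DGCs in that group, without 15-36 or 16-206 for CA1 against CA3 PNs in supplemented Ts mice and without 16-490, 17-157 or 17-173 for CA1 PNs against DGCs in normal-diet Ts mice. The Snhg8 calls were lost without 17-56 for CA1 against CA3 PNs, without 16-206 for CA3 PNs against DGCs in supplemented Ts mice, without any of 4 mice for the same contrast in supplemented 2N mice and without any of 4 mice for CA1 PNs against DGCs. No direction turned in any of these fits. Without the 10 CA1 libraries of high CA2 markers, all 3 calls as lower in CA1 PNs than in DGCs in normal-diet Ts mice were lost (1110038B12Rik, adjusted p = 0.0999, Snhg8, 0.155, and Gas5, 0.182, from edgeR), as were those of Snhg12 for CA1 against CA3 PNs and of Dancr for CA1 PNs against DGCs in supplemented 2N mice (adjusted p = 0.0595 and 0.0621) and of Dancr for CA3 PNs against DGCs in supplemented Ts mice (adjusted p = 0.109). In supplemented 2N mice Dancr was then called lower in CA3 PNs than in DGCs (LFC -0.92, adjusted p = 0.0252 in edgeR). For CA3 PNs against DGCs, the calls of Snhg1, Gas5, Snhg6 and Snhg11 in all 4 groups stood in each fit without 1 mouse.

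Snhg11 had a pattern of its own, high in both pyramidal populations and low in DGCs. In 2N mice on the normal diet it ran from 734 to 1524 CPM in CA1 PNs (median 1116), from 584 to 1149 in CA3 PNs (median 865) and from 17.2 to 294 in DGCs (median 125). Over all groups the lowest CA1 library held 562 CPM and the lowest CA3 library 522, both above the highest DGC library at 468, so that DGCs overlapped neither. The LFC was 2.62 to 3.48 for CA1 PNs against DGCs (27 of 27 mice) and 2.07 to 3.28 for CA3 PNs against DGCs (26 of 26 mice), called in all 4 groups and without any 1 mouse. CA1 PNs against CA3 PNs gave an LFC of 0.18 to 0.56 (21 of 25 mice), which was called in no group at adjusted p of 0.33 or more.

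Snhg3 was too low for a comparison. It was listed at no count in 10 of 27 CA1 libraries, 9 of 26 CA3 libraries and 6 of 28 DGC libraries, its highest count in any library was 9.19, and no contrast between populations was called, with SE of 0.69 to 1.06 on the LFC. Differences of this gene were not detectable at this depth.

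**Figure D2:**
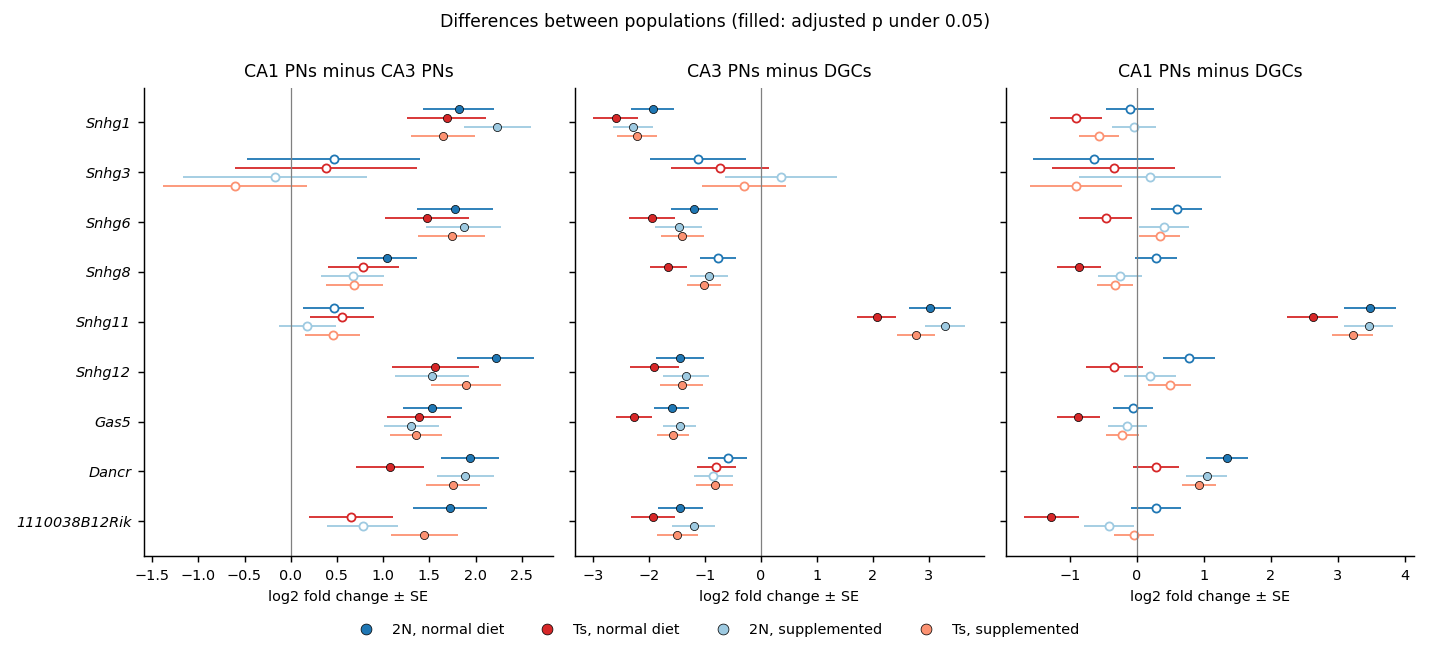
LFC with its SE for CA1 PNs minus CA3 PNs, CA3 PNs minus DGCs and CA1 PNs minus DGCs, with 1 row per gene, colours for the 4 genotype and diet groups and filled points for an adjusted p under 0.05. In the CA3 PNs minus DGCs panel Snhg11 stands at 2.07 to 3.28 while Snhg1, Snhg6, Snhg12, Gas5 and 1110038B12Rik stand at negative values with filled points in all 4 groups.

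Measures that moved with these populations were as follows. CA3 libraries were the deepest, with a median total of 1538372 counts against 1071904 in CA1 and 929301 in DGC libraries. Oligodendrocyte markers (6 genes) had list means from 4.28 to 5.64 log2 CPM in CA3 libraries, 3.28 to 5.05 in CA1 and 2.83 to 4.01 in DGC libraries, and astrocyte markers (6 genes) 4.61 to 5.66, 4.03 to 5.04 and 3.9998 to 4.97. Vascular markers (6 genes) lay at 1.97 to 3.12, 1.84 to 3.09 and 1.59 to 2.33, and inhibitory neuron markers (6 genes) at 3.73 to 4.99, 3.83 to 5.37 and 2.67 to 3.91. The oligodendrocyte marker Mog was at 0 in 18 of 28 DGC libraries and 8 of 27 CA1 libraries. The part of these measures in the differences of the host genes was not tested. Library totals in place of TMM factors shifted the median LFC of all genes by up to 0.22, less than the differences given for Snhg1, Gas5, Snhg6, Snhg12 and Snhg11.

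Antisense and overlapping genes share bases with 6 of the hosts, and reads of such pairs could not be told apart where strand was not used. Exons of Slc3a2 overlap those of Snhg1 by 743 bases, those of Zbtb37 overlap Gas5 by 134 bases, those of Neu1 overlap 1110038B12Rik by 431 bases, those of Mcmdc2 overlap Snhg6 by 542 bases, those of Rcc1 overlap Snhg3 by 633 bases on the same strand and those of Gm43416 overlap Dancr by 456 bases. Slc3a2, which encodes an amino acid transporter chain, was higher in CA3 PNs than in DGCs (LFC 0.74 to 0.92) and did not differ between CA1 and CA3 PNs beyond the spread (LFC -0.25 to -0.15), both unlike Snhg1. Neu1, a lysosomal sialidase, was higher in CA3 PNs than in either other population in all 4 groups (LFC of CA1 against CA3 PNs -0.96 to -0.77), the reverse of 1110038B12Rik. Zbtb37 went with Gas5, higher in CA1 PNs than in CA3 PNs (LFC 0.57 to 1.05) while CA3 PNs were below DGCs (LFC -1.23 to -0.99).

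The snoRNAs inside the hosts were counted as genes of their own. Reads of those in Snhg1, Snhg8, Gas5, Snhg12 and Dancr can be shared with the host, so these counts may not be independent of the host's. Over the 81 libraries Snord22 had 7816 counts, or 98.9% of the snoRNA counts within Snhg1. Snora73b and Snora73a held 2087 and 1795 counts within Snhg3, whose own exons had 123. Snhg11 showed the opposite, with 71093 counts of its own and 207 of its snoRNAs, and 1110038B12Rik had 5459 counts beside 2. How well RNAs this short were recovered in these libraries was not tested, so a count of a snoRNA is not set against that of its host as a relative level.

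Of the 32 snoRNA genes, 19 passed the filter on low counts, and 9, 3, 10 and 8 of them were higher in CA1 PNs than in CA3 PNs in 2N and Ts mice on the normal diet and 2N and Ts mice on the supplemented diet, with none lower. CA3 PNs were lower than DGCs for 4, 9, 6 and 7, with 1 higher in supplemented Ts mice. Of all genes tested, 8.34% to 10.1% were called as higher in CA1 than in CA3 PNs over the 4 groups. As lower in CA3 PNs than in DGCs, 15.3% to 16.8% were called. Snord22, whose sequence is printed above, ran from 29.9 to 192 CPM in CA1 PNs (median 84.3), 4.05 to 50.01 in CA3 PNs (median 30.2) and 45.1 to 306 in DGCs (median 118). It was lower in CA3 PNs than in DGCs in all 4 groups (LFC -1.69 to -2.54) and higher in CA1 than in CA3 PNs in 3 of 4 (LFC 1.29 to 1.72), the order of Snhg1 itself.

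Snora73a and Snora73b, H/ACA-type snoRNAs needed for processing of ribosomal RNA precursors, had a count in all 81 libraries, unlike Snhg3 that holds them. Whether their levels follow transcription of Snhg3 was not tested. Snora73b averaged 26.7 ± 12.1 CPM in CA1 PNs (SD, n = 27), 11.2 ± 4.36 in CA3 PNs (n = 26) and 27.6 ± 9.07 in DGCs (n = 28). It was lower in CA3 PNs than in DGCs in 3 of 4 groups (LFC -0.70 to -1.57), and Snora73a in 4 of 4 (LFC -0.99 to -1.32). Within Snhg12, Snora44 and the Snora16a gene printed above, ENSMUSG00000065097, 1 of 2 genes of that symbol there, were higher in CA1 than in CA3 PNs in all 4 groups (LFC 1.73 to 1.95 and 1.81 to 2.98), and Gm22357 of Gas5 in all 4 groups (LFC 1.79 to 2.65). Snora24 of Snhg8 was called in 3 groups (LFC 1.42 to 2.35), where Snhg8 itself was called in 1.

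Gm25129, the most counted snoRNA of Snhg11 and of the H/ACA type, had its lowest mean in DGCs, as its host had. Against DGCs it was called higher in CA1 PNs in 4 of 4 groups (LFC 3.86 to 5.78). In CA3 PNs it was called higher than in DGCs in 1 of 4 (LFC 0.85 to 3.45), where Snhg11 was called in all 4. Its mean was 5.67 ± 3.98 CPM in CA1 PNs (SD, n = 27), 0.890 ± 0.814 in CA3 PNs (n = 26) and 0.112 ± 0.282 in DGCs (n = 28), and it had a count in 25, 18 and 4 of those libraries. Its CA1 against CA3 LFC was 1.95 to 3.01, called in 3 of 4 groups, with a median of 6 counts per CA1 library and 1 per CA3 library. Snhg11 itself was called in none of the 4, and the difference between the 2 fold changes was not tested.

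**Figure D3:**
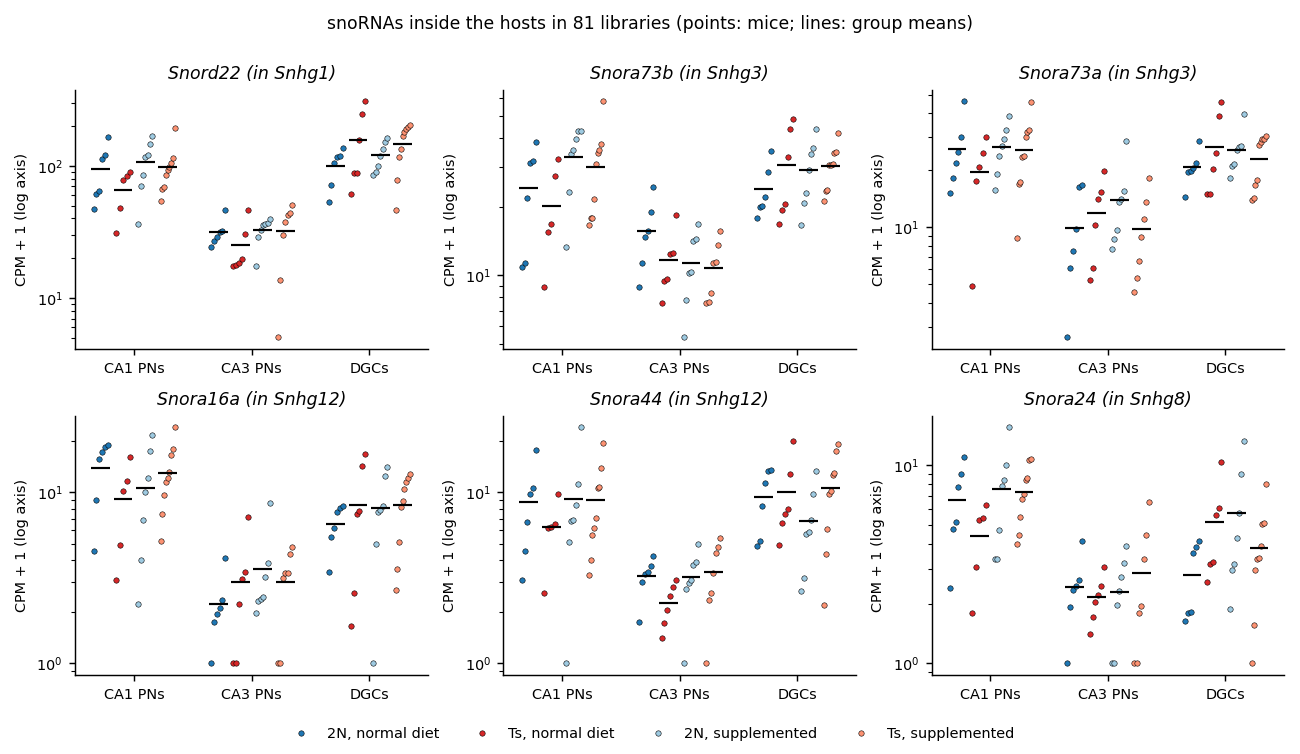
CPM plus 1 on a log axis of 6 snoRNAs within the hosts in CA1 PNs, CA3 PNs and DGCs, with 1 point per mouse, colours for genotype and diet and black lines for group means. Snord22 sits lowest in CA3 PNs, with a median of 30.2 CPM against 84.3 in CA1 PNs and 118 in DGCs.

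Other genes of the same kind were counted from lists. Over all genes tested, 8.34% to 10.1% were called as higher in CA1 than in CA3 PNs over the 4 groups. In either direction 17.4% to 20% were called. For CA3 PNs against DGCs, 15.3% to 16.8% were called as lower and 32.7% to 34.5% in either direction. Of 14 further snoRNA host long noncoding RNA genes, 6, 8, 9 and 7 were higher in CA1 than in CA3 PNs over the 4 groups in the order above and none was lower, with median LFC of 0.73, 1.01, 1.17 and 0.75. Zfas1 (LFC 1.74 ± 0.37 SE, adjusted p = 0.00033 from edgeR in 2N mice on the normal diet), Snhg7 (1.17 ± 0.29) and Snhg4 (0.99 ± 0.27) were among them. CA3 PNs were lower than DGCs for 6, 8, 7 and 11 of the 14, with none higher, among them Snhg5 (-1.47 ± 0.31), Snhg17 (-1.12 ± 0.25) and Snhg4 (-1.10 ± 0.27). Protein-coding snoRNA hosts, a list of 25 such as ribosomal protein genes, went both ways between CA1 and CA3 PNs. In CA1 PNs 7, 2, 9 and 6 were higher and 3, 4, 3 and 2 lower over the 4 groups. Against DGCs, CA3 PNs were lower for 7, 15, 11 and 14 of these 25 and higher for 2 in each group. Nop56, a core protein of box C/D particles that is also a snoRNA host, was higher in CA1 than in CA3 PNs (LFC 1.17 ± 0.22 in 2N mice on the normal diet). The snoRNA particle proteins (14 genes) had median LFC within 0.08 of 0 for CA1 against CA3 PNs, with at most 2 calls in a direction, and CA3 PNs against DGCs gave 3 higher and 3 lower in 2N mice on the normal diet. Of 17 NMD factors, none was higher and 1 or 2 were lower in CA1 than in CA3 PNs, Smg1 (-0.30 ± 0.09) in 2N mice on the normal diet. Other neuronal long noncoding RNAs (10 genes) went both ways, with Pantr1 (3.54 ± 0.39) and Miat (1.61 ± 0.17) higher and Norad (-0.58 ± 0.09) lower in CA1 than in CA3 PNs of that group.

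The second comparison is genotype. Ts against 2N on the normal diet is a description only, because the genes were proposed with results of this contrast known. In CA1 PNs 7 of 8 tested genes were lower in Ts mice, with a median LFC of -0.63 beside -0.01 for all genes. None had an adjusted p under 0.05 in edgeR, where 0.00814% of 12286 genes did, and 3 had an unadjusted p under 0.05, beside 3.77% of all genes. In CA3 PNs 7 of 8 tested were lower (median LFC -0.31) with 1 at an unadjusted p under 0.05 beside 9.2% of 13451 genes, and in DGCs 8 of 9 were higher (median LFC 0.40) with 1 beside 8.5% of 13442 genes. Adjusted calls of members were 0 in both, beside 0.662% and 0.588% of all genes.

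Dancr held 20.5, 22.8, 31.6, 35.6 and 47.5 CPM in the 5 Ts CA1 libraries and 32.4 to 93.8 (median 61.5) in the 6 2N libraries, an LFC of -0.95 ± 0.26 (SE). The lowest 2N value, in the library labelled 2N of 17-154, and the 47.0 CPM of 17-21 were the 2N libraries within the Ts range, while the lowest Ts value came from 16-357. Without the CA1 libraries of 17-154, 17-21, 15-336 and 16-272 the LFC was -1.19, with an adjusted p of 0.032 in edgeR, but on this diet that removes 2N libraries alone. The Ts library of 16-357 stayed in, with a CA2 marker mean of 7.24, the highest oligodendrocyte marker mean of the CA1 libraries (5.05) and the lowest mean of the 7 hosts Snhg1, Snhg6, Snhg8, Snhg12, Gas5, Dancr and 1110038B12Rik (4.69 log2 CPM). Without mouse 16-357 alone the LFC of Dancr was -0.82 and that of 1110038B12Rik -0.80, both with an adjusted p of 0.796 in edgeR. Without all 10 CA1 libraries of high CA2 markers, which leaves 4 libraries of each genotype, they were -1.07 and -1.02, with adjusted p of 0.0047 and 0.0058. The part of CA2 and oligodendrocyte signal in these values was not tested. 1110038B12Rik held 48.6 to 104 CPM (median 82.4) in 2N CA1 libraries against the Ts values given above, an LFC of -0.98 ± 0.29. Snhg12 ran from 45.6 to 133 in Ts mice and 89.4 to 253 in 2N mice (LFC -0.85 ± 0.35). Values of the 2 genotypes overlapped for each of these genes.

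In CA3 PNs Gas5 held 39.1 to 68.0 CPM in Ts mice and 51.6 to 119 in 2N mice (LFC -0.42 ± 0.19). The highest 2N value is the library of 15-145 with a Ts label, and with that library counted as Ts the LFC was 0.05. The mean of triplicated genes in that library, 4.83 log2 CPM, lay below those of all Ts CA3 libraries (5.08 to 5.32). In DGCs Snhg6 held 29.7 to 95.3 CPM in Ts and 26.8 to 46.2 in 2N mice (LFC 0.70 ± 0.31), and Snhg11 64.9 to 468 in Ts and 17.2 to 294 in 2N mice (LFC 1.13 ± 0.63, unadjusted p of 0.10 in edgeR). The difference of the genotype LFC between CA1 PNs and DGCs on the normal diet was -1.56 for 1110038B12Rik, -1.15 for Snhg8 and -1.07 for Dancr, 3 of 9 genes at an unadjusted p under 0.05 beside 4.45% of 20493 genes. Between CA1 and CA3 PNs and between CA3 PNs and DGCs none of the 9 reached that level, beside 3.42% and 4% of all genes. None passed the adjusted test in any of the 3, where 0% of all genes did.

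**Figure D4:**
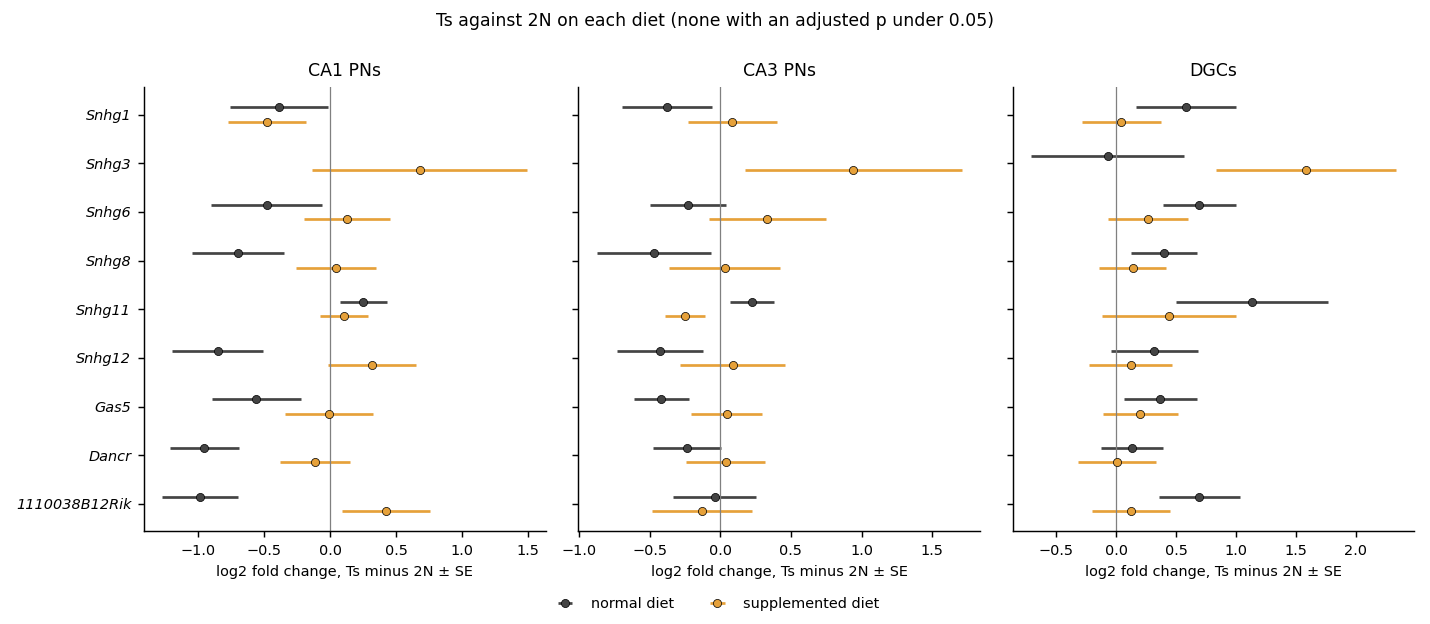
LFC of Ts against 2N with its SE for each gene (rows) in CA1 PNs, CA3 PNs and DGCs (panels), on the normal diet in dark points and the supplemented diet in orange points. In CA1 PNs the normal-diet points of Dancr, 1110038B12Rik and Snhg12 lie at -0.95, -0.98 and -0.85, and their supplemented-diet points at -0.12, 0.42 and 0.32.

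The same genotype comparison among mice of the supplemented diet, which took no part in the normal-diet contrast, gave no call. No gene of the 9 had an adjusted p under 0.05 in any population, beside 0.0678%, 0.227% and 0.423% of all genes in CA1 PNs, CA3 PNs and DGCs, and 1 of 27 tests had an unadjusted p under 0.05 in edgeR, beside 3.94%, 5.45% and 7.61%. Dancr in CA1 PNs held 34.1 to 95.6 CPM (median 53.8) in 7 2N mice and 30.0 to 98.6 (median 50.8) in 9 Ts mice, with an LFC of -0.12 ± 0.26. For 1110038B12Rik the values were 18.4 to 121 and 41.1 to 139 CPM (LFC 0.42 ± 0.33) and for Snhg12 23.3 to 196 and 96.5 to 286 (LFC 0.32 ± 0.33), so none of the 3 genes was lower in Ts mice beyond the spread on this diet. In DGCs Snhg11 held 24.5 to 154 CPM in 2N and 22.4 to 251 in Ts mice (LFC 0.44 ± 0.56). The 1 test at an unadjusted p under 0.05 was Snhg3 in DGCs (LFC 1.59 ± 0.75), a gene with a median of 0 counts in 2N and 2.02 in Ts libraries of that comparison.

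The third comparison is maternal choline. In 2N mice no gene had an unadjusted p under 0.05 in any population, beside 3.27%, 4.9% and 5.82% of all genes, and in Ts mice 6 of 27 tests did, beside 3.05%, 4.19% and 3.81%. No adjusted call was made in edgeR in either genotype, where 0%, 0.012% and 0.00605% of all genes were called in 2N mice and 0% in Ts mice. The normal-diet Ts libraries are shared with the genotype contrast on that diet. Snhg11 was the gene with an unadjusted p under 0.05 in Ts mice of all 3 populations, in each with a negative LFC for the supplemented diet. It was -0.42 ± 0.20 in CA1 PNs (927 to 1776 CPM on the normal and 562 to 1365 on the supplemented diet), -0.47 ± 0.15 in CA3 PNs (833 to 1197 and 522 to 920) and -1.07 ± 0.51 in DGCs (64.9 to 468 and 22.4 to 251). The libraries of the 3 populations come from the same mice, so these are not 3 independent results. High CA2 markers were uneven between the diets in Ts CA1 libraries. They were found in 16-357 on the normal diet and in 15-140, 15-198, 15-199 and 16-272 on the supplemented diet. Across CA1 libraries Snhg11 had an r of -0.76 to CA2 markers, and the part of CA2 signal in its CA1 value was not tested. The other 3 tests were Dancr (LFC 0.72 ± 0.30) and 1110038B12Rik (0.89 ± 0.37) in CA1 PNs and Gas5 in CA3 PNs (0.70 ± 0.27), all positive.

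The test of genotype by diet takes in the normal-diet genotype values, known when the genes were proposed, so it too is a description only. It gave no adjusted call, where 0% of all genes were called in each population, and 3 of 27 tests at an unadjusted p under 0.05 in edgeR. They were 1110038B12Rik (LFC difference 1.37 ± 0.52) and Snhg12 (1.14 ± 0.52) in CA1 PNs, where 3.22% of all genes reached that level, and Snhg11 (-0.47 ± 0.21) in CA3 PNs, where 4.87% did. In DGCs none of the 9 reached it, beside 3.97%. The genotype difference of Dancr in CA1 PNs was thus not shown to differ between the diets (LFC difference 0.81 ± 0.42, unadjusted p of 0.065 in edgeR).

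How the 9 genes varied among libraries of 1 population was described by Pearson's r of log2 CPM, with no test, since libraries of a population share preparation and differ in depth. The 21 pairs among Snhg1, Snhg6, Snhg8, Snhg12, Gas5, Dancr and 1110038B12Rik, 7 genes set apart after their values were seen, had a median r of 0.65 across 27 CA1 libraries (range 0.12 to 0.92), 0.45 across 26 CA3 libraries (0.16 to 0.81) and 0.59 across 28 DGC libraries (0.11 to 0.89). Snhg11 with these 7 had a median r of 0.21, -0.14 and -0.13. Over all 81 libraries, with the mean of each population removed, the genes most like Gas5 were Zfas1 (r = 0.86), a further snoRNA host, Nop56 (0.85) and Rpl32 (0.80), a ribosomal protein gene. Those most like Snhg6 were Zfas1 (0.85), the small RNA gene Gm25099 (0.83) and Rpl5 (0.82), and those most like Snhg1 were Rps3 (0.79), Snhg4 (0.78) and the snoRNA gene Gm25835 (0.77). For Snhg12 they were 1110038B12Rik (0.86), the snoRNA gene Gm22988 (0.85) and Snora81 (0.84), for 1110038B12Rik Rnu11 (0.87), the RNA of the minor spliceosome, then Snhg12 and Zfas1 (0.82), and for Dancr Rmrp (0.74), an RNA that takes part in ribosomal RNA processing, Gm25835 (0.72) and Snhg20 (0.72). Snhg8 had weaker likeness, with Rpl13 first (0.47), Snhg3 had Tnpo3 first (0.49), and Snhg11 had Egr1 (0.47), an immediate early gene of neuronal activity, Aar2 (0.46) and Ncoa3 (0.46). Within populations the r of Snhg11 to Egr1 was 0.79 across CA1 libraries, 0.007 across CA3 libraries and 0.54 across DGC libraries, that to Aar2 0.03, 0.31 and 0.69, and that to Ncoa3 0.78, 0.67 and 0.45. In CA1 libraries Snhg11 varied with marker lists, with r of 0.66 to CA1, -0.76 to CA2 and -0.78 to CA3, -0.63 to oligodendrocyte and -0.71 to vascular markers, while in CA3 libraries and DGCs its r to the CA1, CA2 and CA3 lists lay between -0.11 and 0.35.

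Snhg11 was also the gene for which CA3 and DGC libraries of the same mouse deviated together. Its deviations of log2 CPM from the group mean in CA3 PNs and in DGCs of the same mouse had a Pearson's r of 0.80 over 26 mice (permutation p = 1e-05 with mice shuffled within groups, the smallest p that the 100000 shuffles can give, two-sided) and a Spearman's rho of 0.82 (permutation p = 2e-05). Over the 27 relations of this family, 9 genes by 3 pairs of populations, the adjusted p was 0.00027 for r and 0.00054 for rho. Leaving out the 2 mice farthest from the CA3 median gave an r of 0.74 over 24 mice, and r was positive within each group, at 0.94 (2N, n = 6) and 0.84 (Ts, n = 6) on the normal diet and 0.60 (2N, n = 7) and 0.79 (Ts, n = 7) on the supplemented diet. Mouse 17-192 had the highest value in both, with 1197 CPM in CA3 PNs and 468 in DGCs, and mouse 17-154 the lowest in DGCs, 17.2, with 584 in CA3 PNs, the third lowest of the 26. Of the other 26 relations none had an adjusted permutation p under 0.05, the highest r among them being 0.50 for Gas5 between CA1 and CA3 PNs (25 mice, permutation p = 0.029, adjusted p = 0.39). For Snhg11 in CA1 PNs and DGCs r was 0.10 over 27 mice, and 0.43 over 24 mice without 17-21, 15-336 and 16-272, whose CA1 libraries have the lowest CA1 markers. For Snhg11 in CA1 and CA3 PNs r was 0.13 over 25 mice, and 0.44 over 23 mice without the mice just named.

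**Figure D5:**
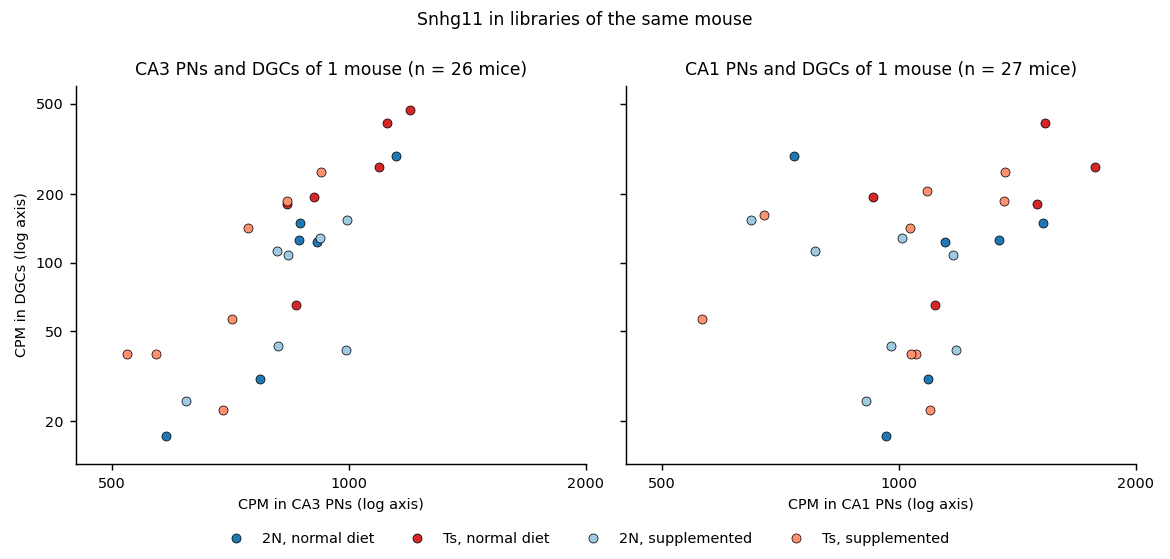
Snhg11 CPM in DGCs (vertical, log axis) against CPM of the same mouse in CA3 PNs (left, 26 mice) and CA1 PNs (right, 27 mice), with 1 point per mouse and colours for genotype and diet. On the left the points of all 4 groups run along 1 band from low to high, and on the right they do not.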

How the data were processed

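RNA of LCM-isolated neurons was sequenced from 81 libraries of 28 mice with the SMARTer Stranded Total RNA-Seq Pico v3 kit. The authors trimmed reads (Trimmomatic 0.39), aligned them with STAR and deposited RSEM expected counts and TPM per gene. The submitters' processing notes name both GRCm39 and mm10. Whether RSEM used strand is not given in the sources used here. The 9 genes and all lists were chosen with earlier results of these data known. The normal-diet genotype values, and the genotype by diet values that take them in, are therefore given as a description.

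Before testing, the deposited expected counts were rounded to integers. Genes with more than 0.1 CPM in at least 10 libraries were kept and tested with edgeR 4.0.16 (quasi-likelihood test, TMM factors, R 4.3.3), and p-values were adjusted over all genes tested by the Benjamini-Hochberg method at 0.05. Genotype on the normal diet was fitted on the libraries of that diet, genotype on the supplemented diet, diet and their interaction on both diets of a population, and populations on all 81 libraries with the mouse as a block. The deposited TPM were used only to order genes. Symbols, positions and snoRNAs came from GENCODE vM39 on GRCm39. All 9 genes were named, with the 3 genes most like each over genes of mean log2 CPM of at least 4, and up to 3 genes of each list and direction with the smallest p among those that passed the test. The CA3 library of mouse 15-145, labelled Ts, was taken as 2N.

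The mouse number pairs libraries because it marks 1 animal. Over 78 same-mouse pairs the deviations from group means had a median r of 0.104, against -0.015 over 480 pairs of different mice. No 2 libraries held identical values. On simulated counts the normal-diet genotype fit of CA1 PNs (12286 genes) recovered 64% of 2-fold and 93% of 4-fold changes. Alternatives were DESeq2 1.42.0, limma-voom 3.58.1, no filter, filterByExpr, library totals, 1 surrogate variable (sva 3.50.0), both diets in 1 fit, no block, the label of 15-145, and leaving out single libraries or mice. Fits of 1 group alone, of the normal-diet libraries alone and without the CA1 libraries of 15-336 and 16-272 or the 10 of high CA2 markers were added after seeing the data. An item withheld from this text is not reported here.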

Additional observations from a re-analysis of the deposited data

Results flagged for a closer look

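In 6 of 108 groups of 5 to 9 libraries (5.56%), 1 library lay farther from the others than Dixon's test allows at the 95% level, and chance alone flags about 1 in 20 groups. Snhg12 gave 3 of these. In CA1 PNs of 2N mice on the supplemented diet the library of 15-336, 1 of the 10 with high CA2 markers, held 23.3 CPM of Snhg12 against 83.6 to 196 in the others. In CA3 PNs of the same group mouse 16-90 held 11.6 CPM of Snhg12 against 35.01 to 68.6, and in DGCs of that group mouse 14-125 held 197 CPM against 69.2 to 97.98. 1110038B12Rik was at 18.02 CPM in DGCs of the supplemented Ts mouse 15-140 against 48.2 to 124. Snhg8 was at 5.64 CPM in DGCs of the normal-diet Ts mouse 17-192 against 12.4 to 17.2. Snhg3 was at 4.304 CPM in DGCs of the supplemented 2N mouse 15-296 against at most 0.948, which rests on 2.01 counts.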

How the results depend on the processing

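Without any filter on low counts, adjusted calls among the 9 genes rose from 0 to 3 for genotype on the normal diet (Dancr and 1110038B12Rik in CA1 PNs, Gas5 in CA3 PNs), from 0 to 9 for the difference of the genotype effect between populations, whose tests at an unadjusted p under 0.05 rose from 3 to 17, and from 10 to 17 for CA1 PNs against DGCs. Without the CA1 libraries of 17-154, 17-21, 15-336 and 16-272, which on the normal diet are all 2N, 1 gene was called for genotype on the normal diet, Dancr in CA1 PNs, and 5 tests of genotype by diet had an unadjusted p under 0.05 in place of 3. Without all 10 CA1 libraries of high CA2 markers, of both genotypes, 2 genes were called for genotype on the normal diet, Dancr and 1110038B12Rik in CA1 PNs, among 8 libraries in each of which a gene had to pass the filter, 6 calls were made for CA1 PNs against DGCs in place of 10, and 5 tests of genotype by diet and 2 of genotype on the supplemented diet had an unadjusted p under 0.05. For genotype on the normal diet that number was 8 with limma-voom and 2 with both diets in 1 fit, in place of 5, and on the supplemented diet 0 with filterByExpr in place of 1. For the difference of the genotype effect between populations it was 9 with limma-voom, 6 without the CA1 library of 17-21 and also without those of 17-21, 15-336 and 16-272, and 5 without that of 17-154, on normal-diet libraries alone and without the mouse block. Gas5 in CA3 PNs turned from -0.42 to 0.0486 with the CA3 library of 15-145 under its own label. That label goes against the mean of triplicated genes in this library, 4.83 log2 CPM. By CPM in place of TPM, 3 genes in CA3 PNs and 2 in DGCs held the same rank. The causes were not tested. The share of all genes called under these other settings is not given here, so gains among the 9 genes cannot be set against gains over all genes. Without the replicate block 62 calls between populations were made in place of 61. Leaving out each mouse in turn gave 55 to 65 of these calls, 0 adjusted calls for genotype, diet and their interaction, and, at an unadjusted p under 0.05, 2 to 7 tests for genotype on the normal diet, 0 to 2 on the supplemented diet, 2 to 7 for diet, 1 to 4 for genotype by diet and 3 to 8 for the difference between populations. Single values were followed under other settings only where the main fit gave an unadjusted p under 0.05, 86 in all. Under settings other than leaving out a mouse, 939 values stayed on their side of the adjusted threshold, 37 passed it newly and 11 lost it. Depth limits Snhg3, at 9.19 counts or fewer in every library.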

Other observations

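The genes whose levels ran most like Snhg11 were looked up by position after the data were seen, as a description with no test. Over the CA3 and DGC libraries, with group means removed, 6 of the 20 most like genes lay on chromosome 2, the chromosome of Snhg11, which holds 8.09% of the 7638 genes considered. Aar2 (r = 0.57), a spliceosome assembly factor, lies 1.83 Mb from Snhg11, Cep250 (r = 0.50), a centrosome protein gene, 2.42 Mb, Ncoa3, a nuclear receptor coactivator gene, 7.62 Mb and Znfx1 8.66 Mb, while Cdan1 and Rapgef1 lie farther away. Of the 20 genes that ran most against Snhg11, 3 lay on chromosome 2. The mice come from a mixed background, and their genotypes along chromosome 2 were not analysed here.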
